A study of Mus musculus with 28 samples.

Results

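H3K4me3 peaks called in both A2a and D1 medium spiny neurons (MSNs) of the mouse striatum were sorted by the H3K27me3 islands they met, and those that met an island in A2a and none in D1 are described here. A peak of the A2a list on chromosomes 1 to 19 entered the set when it overlapped a D1 H3K4me3 peak and an A2a H3K27me3 island by at least 1 bp, and when neither it nor any D1 peak it overlapped met a D1 island. Of 22551 A2a peaks, 21819 lay on these chromosomes and 17948 of those were shared with D1. The set held 852 of them, or 4.75% of the shared peaks (Wilson 95% interval 4.45 to 5.07%). A further 1585 shared peaks (8.83%) met islands of both cell types, 117 (0.652%) met a D1 island alone and 15394 (85.8%) met none.

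The study profiled histone marks by CUT&RUN (CnR), in which an antibody directs a nuclease to cut out the chromatin that carries a mark, on nuclei purified by INTACT. Nuclei were pulled down through a Sun1-sfGFP tag from the R26-CAG-LSL-Sun1-sfGFP allele, switched on by A2a-cre in Sun1-sfGFP;A2a-cre mice and by *Drd1*-cre in Sun1-sfGFP;Drd1-cre mice, all adult and on the C57BL/6J background with both sexes included. The groups are therefore defined by the promoters that drive Cre, and both carry the tag. Each of the 4 lists used was taken to pool 2 replicates of 1 cell type and mark, so 8 of the 28 samples enter. The names of the lists state merging for H3K27me3 alone, and for H3K4me3 the pooling is inferred. No value has an error between mice. The series used several antibodies per mark, and the lists were assigned to the Abcam antibody for H3K4me3 by inference from the study's methods and to the Active Motif antibody for H3K27me3 from the name of the list. For the D1 H3K27me3 samples the labels disagree, with A2a as the source name but D1 as the title and the cell type. The title was followed, and every statement below on the absence of a D1 island rests on that choice.

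H3K4me3 is laid down at the 5′ ends of genes, most strongly at CpG-rich promoters, and is found where transcription starts or can start. H3K27me3 is laid down by polycomb repressive complex 2 over silent or weakly active genes, many of them regulators of development. Promoters where both marks are found are called bivalent, but in a population of nuclei the marks can lie on the same nucleosome, on different alleles or in different cells, and separate CnR libraries cannot tell these apart.

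The sequences below come from peaks at promoters that the results turn on and show how much they differ in CpG content. Each is the stretch of 200 bp within the A2a peak that lies closest to the summit and holds no annotated exon, read from GRCm38 (mm10) on the strand of the gene, with CpG dinucleotides in capitals. The *Oprk1* stretch (chr1:5588266-5588465, plus strand) ends 1 bp before the annotated transcription start site (TSS) and holds 7 CpGs. The *Sstr2* stretch (chr11:113619623-113619822, plus strand) is non-exonic sequence within *Sstr2* and within the overlapping gene *Slc39a11*, and holds 12 CpGs. The *Cnr1* stretch (chr4:33925346-33925545, plus strand) is intronic and centred on the summit, and it holds 2 CpGs, the fewest of the 6. The *Foxp2* stretch (chr6:14900635-14900834, plus strand) lies upstream of the TSS and holds 8, and the *Gad2* stretch (chr2:22623104-22623303, plus strand) is intronic and holds 10. The *Kcnn1* stretch (chr8:70865555-70865754, minus strand) lies upstream, at −2496 to −2297 bp from the TSS, within the peak but beyond the 2 kb taken as promoter below, and holds 18 CpGs, the most of the 6.
*Oprk1*: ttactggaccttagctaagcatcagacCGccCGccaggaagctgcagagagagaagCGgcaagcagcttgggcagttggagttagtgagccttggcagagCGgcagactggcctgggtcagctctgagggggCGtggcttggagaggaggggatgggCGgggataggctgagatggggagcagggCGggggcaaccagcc
*Sstr2*: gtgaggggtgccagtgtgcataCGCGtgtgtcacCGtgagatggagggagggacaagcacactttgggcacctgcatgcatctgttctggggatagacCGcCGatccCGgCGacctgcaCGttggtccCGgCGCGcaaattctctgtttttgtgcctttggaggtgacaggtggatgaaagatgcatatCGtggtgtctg
*Cnr1*: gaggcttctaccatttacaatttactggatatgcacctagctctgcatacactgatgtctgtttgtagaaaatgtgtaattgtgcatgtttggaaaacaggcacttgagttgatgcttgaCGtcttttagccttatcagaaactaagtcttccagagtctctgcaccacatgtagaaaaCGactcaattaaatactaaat
*Foxp2*: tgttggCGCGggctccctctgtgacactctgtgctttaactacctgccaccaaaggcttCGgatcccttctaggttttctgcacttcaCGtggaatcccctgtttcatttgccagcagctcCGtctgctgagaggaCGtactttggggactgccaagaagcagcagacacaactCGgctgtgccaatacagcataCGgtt
*Gad2*: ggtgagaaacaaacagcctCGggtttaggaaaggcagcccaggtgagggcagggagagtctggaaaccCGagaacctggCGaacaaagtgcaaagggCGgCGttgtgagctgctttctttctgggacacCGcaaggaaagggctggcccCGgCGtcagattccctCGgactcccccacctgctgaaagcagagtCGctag
*Kcnn1*: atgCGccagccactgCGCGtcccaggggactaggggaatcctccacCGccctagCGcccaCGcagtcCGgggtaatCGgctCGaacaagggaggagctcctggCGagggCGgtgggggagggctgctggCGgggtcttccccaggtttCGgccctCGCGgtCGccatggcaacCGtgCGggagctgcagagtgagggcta

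A2a islands at these peaks were shorter and thinner than those at peaks marked in both cell types. The median island was 4.0 kb long (95% interval of the median 3.8 to 4.2 kb) against 9.0 kb (8.6 to 9.4 kb) where D1 had an island too. The median read density was 65.0 reads per kb (64.1 to 65.6) against 90.8 (89.4 to 92.9), and 62.5 over the whole A2a list. In the ranking of all A2a islands by reads, the islands at these peaks had a median percentile of 59.4, and those at peaks marked in both had 93.0. Island strength was thus tied to whether D1 had an island. Of the 2437 shared peaks with an A2a island, 852 (35.0%) had none in D1, and this share was 86.5% (160 of 185) for islands up to the 25th percentile by reads, 54.9% (237 of 432) between the 50th and 75th percentile and 4.35% (9 of 207) in the top percentile.

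**Figure D1:**
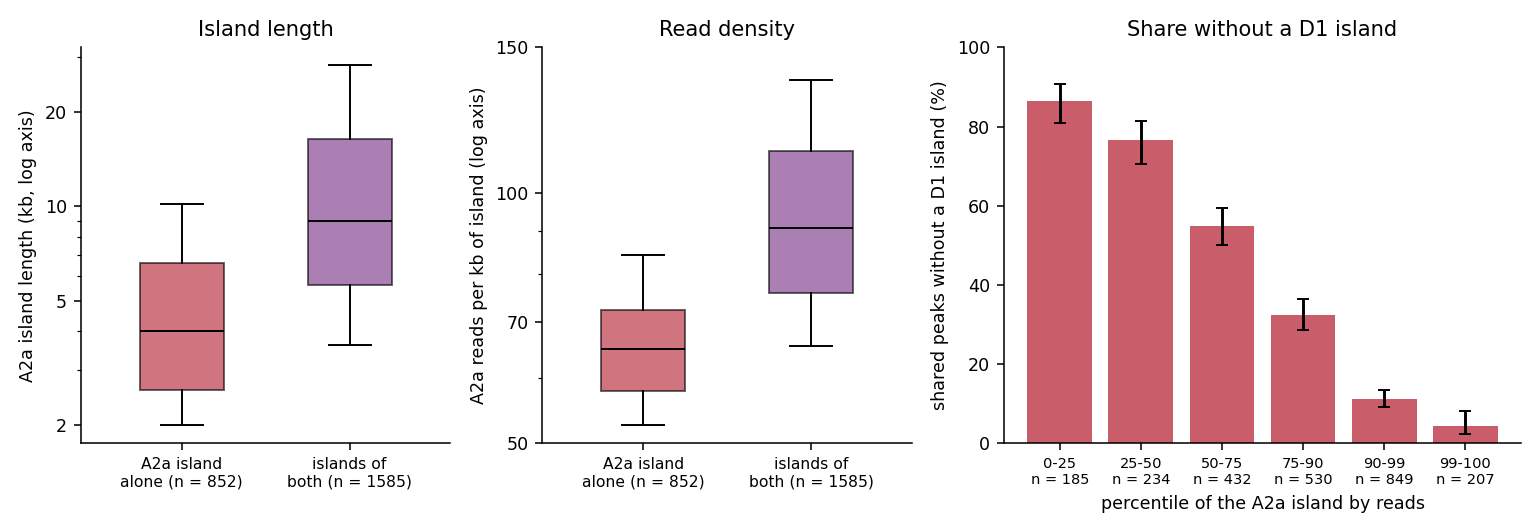
Length (left, kb, log axis) and read density (middle, reads per kb, log axis) of the A2a H3K27me3 island at shared H3K4me3 peaks with an A2a island alone or with islands of both cell types, and the percent of shared peaks with an A2a island that had no D1 island, by the percentile of that island by reads (right). Boxes are quartiles with the median, whiskers the 10th and 90th percentiles and error bars Wilson 95% intervals; islands without a D1 counterpart were shorter and thinner, and their share was 86.5% for the weakest islands and 4.35% for the strongest.

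The A2a list was also the larger, with 60191 islands over 301 Mb against 45760 over 184 Mb in D1, at medians of 62.5 and 37.2 reads per kb. The thinnest A2a island had 36.8 reads per kb, close to the D1 median, while D1 islands reached down to 19. The mirror set, shared D1 peaks that met a D1 island and no A2a island, held 115 of 18406 peaks (0.625%), so the A2a set was 7.41 times as large. When the A2a list was shortened to its strongest islands until it covered no more of the genome than the D1 list, 358 peaks stayed in the A2a set and the mirror set held 303, a ratio of 1.18. With equal numbers of islands the sets held 699 and 138 peaks. The study reported more H3K27me3 signal in peaks in A2a than in D1 even after scaling to total mapped reads. It hypothesized technical sources, among them cell number, immunoprecipitation efficiency, amplification and batch, and normalized its signal between the cell types. Island reads in the lists used here are raw counts. The size of the set and its excess over the mirror thus moved with the extent of the lists. Depth, such technical sources and cell type cannot be told apart in them.

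The 852 peaks met 838 distinct A2a islands, of which 19 held more than 1 of the peaks. Away from the peak, 182 of the 838 islands overlapped a D1 island, and 656 overlapped none along their whole length. The peak lay wholly within A2a islands in 498 cases (58.5%), against 90.5% of peaks marked in both cell types, and under 50% of its length was covered in 154. The summit lay within an island in 721 (84.6%). The nearest D1 island, measured from the A2a peak or the D1 peaks it overlapped, was at a median of 18.3 kb (15.6 to 21.7 kb), within 1 kb for 88 peaks (10.3%) and within 10 kb for 336 (39.4%), while of the peaks without any island 9.41% had a D1 island within 10 kb. D1 H3K27me3 was thus called nearby more often than around unmarked peaks.

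At the edge of the rule, the 5 included peaks closest to a D1 island stood 0 to 18 bp from it, *Slc39a8* at 12 bp and *Ckap4* at 18 bp among them. The 5 peaks with the least D1 overlap, left out for it, met a D1 island by 10 to 45 bp, *Aatf* by 10 bp, *Mcidas* by 14 bp and *Asap3* by 28 bp. In all, 19 included peaks lay within 200 bp of a D1 island, and 35 peaks were placed with those marked in both by a D1 overlap under 200 bp. With no D1 island allowed within 5 kb, 610 of the 852 peaks stayed.

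Most of the peaks were promoter peaks. The annotated 5′ end of a protein-coding gene (2 kb upstream to 1 kb downstream of the TSS, GENCODE vM21) was met by 463 peaks (54.3%, Wilson 51.0 to 57.7%), against 59.6% of all shared peaks. These peaks belonged to 472 genes, since 11 of them met 2 or more genes. Another 94 (11%) lay at other transcript starts of protein-coding genes and 53 (6.22%) at starts of non-coding genes. The remaining peaks lay within protein-coding genes (92, 10.8%) or outside them (150, 17.6%). Around the TSS, the island extended farther downstream than upstream in 61.5% of the 452 promoter peaks that met 1 gene. It covered the TSS itself in 325 (71.9%), and lay wholly downstream of it in 96 and wholly upstream in 31. These positions were not computed for the other classes of peaks, so whether they are particular to the set was not tested.

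Promoter peaks were longer and richer in CpG than those away from genes, while their islands had similar median densities. Observed over expected CpG, the CpG count relative to that given by the C and G content, had a median of 0.648 (0.629 to 0.667) at the 463 promoter peaks and 0.492 (0.443 to 0.517) at the 150 peaks outside genes and transcript starts. The median peak length was 1489 bp and 743 bp, and the A2a islands had 65.0 and 64.0 reads per kb. Over all 852 peaks the CpG ratio was 0.595 (0.575 to 0.612), beside 0.647 (0.637 to 0.660) for peaks marked in both and 0.602 (0.597 to 0.607) for peaks without an island. The GC content was 56.3%, 58.3% and 54.4% in the same order. By chromosome, the share of shared peaks that belonged to the set ran from 2.35% on chromosome 19 (13 of 553) to 6.97% on chromosome 1 (78 of 1119).

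H3K4me3 at these peaks ranked lower in the D1 list than in the A2a list, by more than at unmarked peaks and by less than at peaks marked in both. Peaks were ranked within each list by −log10 q, as percentiles. The median percentile was 47.3 in A2a (45.7 to 48.7) and 40.0 in D1, and the median difference, D1 minus A2a, was −7.97 (−8.87 to −7.35). It was −11.03 (−11.5 to −10.5) at peaks marked in both, −4.85 (−5.04 to −4.64) at peaks without an island and −5.68 over all shared peaks, so most of the difference was common to the shared peaks. The D1 percentile was the higher of the pair at 152 of the 852 peaks (17.8%), against 28.7% of all shared peaks, 8.90% of those marked in both and 31.4% of those without an island. With ranks taken among the shared peaks alone, an alternative added after the values were seen, the 3 medians were −1.80 (−2.55 to −1.10), −3.51 and −0.03, and the D1 rank was the higher at 354 of the 852 peaks (41.5%), 31.8% of those marked in both and 49.8% of those without an island. Ranked by fold enrichment, 260 of the 852 (30.5%) were higher in D1. By none of these rankings was the A2a rank the lower of the pair at most peaks of the set.

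**Figure D2:**
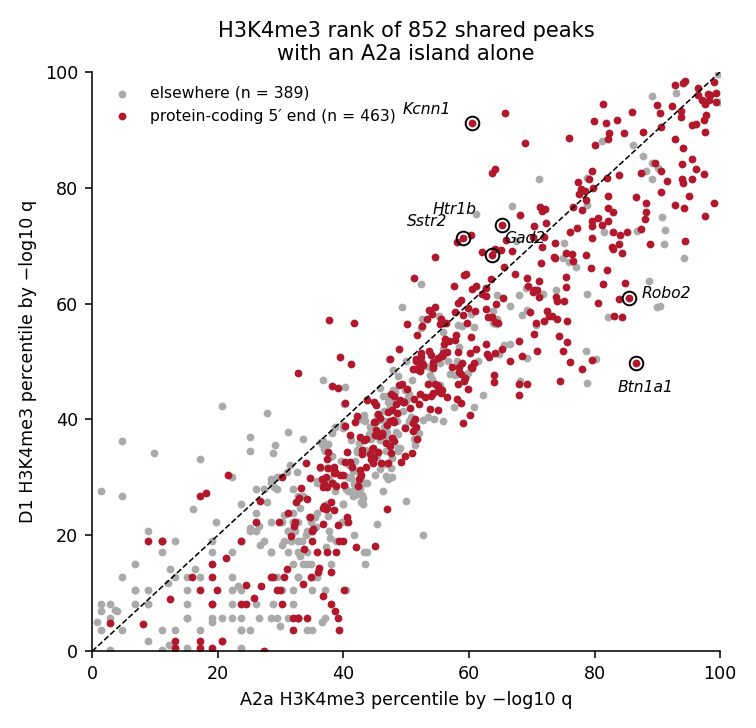
H3K4me3 percentile by −log10 q in the D1 list (vertical) against the A2a list (horizontal) for the 852 shared peaks with an A2a island alone, with the 463 at a protein-coding 5′ end in red, the other 389 in grey and the dashed line marking equal ranks. Points lie mostly below the line, at a median of −7.97, while *Kcnn1*, *Sstr2*, *Htr1b* and *Gad2* lie above it and *Btn1a1* and *Robo2* well below.

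The medians of the 3 classes had the same order in each range of A2a H3K4me3, though not always with separate intervals. Among peaks up to the 25th percentile of the A2a list the median difference was −3.71 with an A2a island alone, −6.59 with islands of both and −1.53 without an island. Above the 75th percentile it was −7.39 (n = 144), −15.3 (n = 73) and −3.78 (n = 5338). The quartiles of the 3 classes overlapped in all 4 ranges. Fold enrichments, which MACS2 takes over the local background, gave a median ratio of D1 over A2a of 0.873, 0.825 and 0.942. They come from separate libraries and are not normalized to each other.

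**Figure D3:**
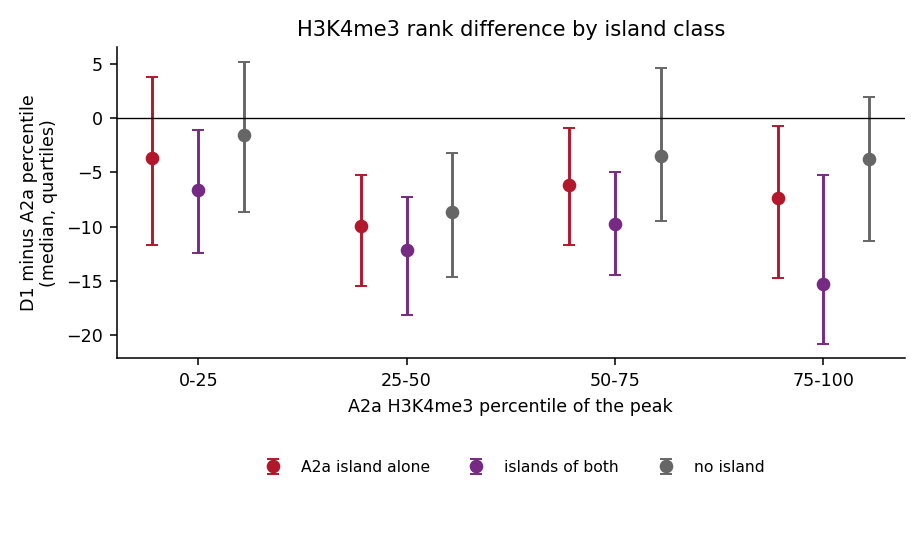
Difference in H3K4me3 percentile, D1 minus A2a (vertical, percentile points), by the A2a percentile of the peak (horizontal) for shared peaks with an A2a island alone, with islands of both cell types and with no island. Points are medians and bars quartiles; the peaks with an A2a island alone lie between the other classes in each range, −7.39 against −15.3 and −3.78 in the highest.

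Of the marker genes that separate direct from indirect pathway neurons none was in the set, but the lists are small, and over all 11803 autosomal protein-coding genes with a shared promoter peak the share in the set was 4.0%, the share with islands of both cell types 8.86% (1046 genes), and 53 genes had a D1 island alone. A count of 0 in lists of this size is close to that background and is no result about the markers. For a count of 0, the largest share allowed was taken as 3 divided by the number of genes, an approximation that is rough in short lists. None of 9 direct pathway genes with a shared promoter peak was a member, which allows a share of up to 33.3%. Of the 9, 6 carried islands of both cell types, *Drd1*, *Pdyn* and *Tac1* among them. None of 10 indirect pathway genes was a member either, which allows a share of up to 30%. Of these 10 genes, which mark A2a neurons, 5 carried a D1 island alone at a shared peak, namely *Adora2a*, *Drd2*, *Gpr6*, *Ptprm* and *Oprd1*. Islands of both were carried by 4, *Penk* among them. The list of glial and vascular markers had a shared promoter peak at 6 of 19 genes, 5 of them with islands of both cell types and none in the set (allowing up to 50%). Cortical excitatory markers had 5 of 11, with islands of both at 3, and interneuron markers 1 of 16, again with none in the set. The part of other cells in the lists was not tested beyond these counts.

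The 4.0% of all genes with a peak of the set stands for 472 of the 11803, and the other gene lists are read against that share. The receptor list had 10 of 47 genes (21.3%, Wilson 11.99 to 34.9%), axon guidance 9 of 47 (19.1%, 10.4 to 32.5%), potassium channels 9 of 53 (17.0%, 9.20 to 29.2%), signalling ligands 4 of 24 (16.7%, 6.68 to 35.9%) and striatal projection neuron genes 4 of 14 (28.6%, 11.7 to 54.6%). Activity-induced genes had 1 of 21, *Nr4a3*, and developmental transcription factors 1 of 14, *Dlx6*. Islands of both cell types were carried by 12 of the 14, *Dlx6* among them at another promoter peak. No glutamate or GABA receptor subunit gene (0 of 31, allowing up to 9.68%) and no cytosolic ribosomal protein gene (0 of 51, allowing up to 5.88%) was in the set. Islands of both cell types were carried by 42.6% of receptor, 31.9% of axon guidance, 20.8% of potassium channel and 58.3% of signalling ligand genes, against 8.86% of all genes. Shares above those of all genes were thus not particular to an A2a island alone in these lists. The striatal projection neuron list had no gene with islands of both. Intervals cover counting error only, and the lists were compared by these shares with no test.

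**Figure D4:**
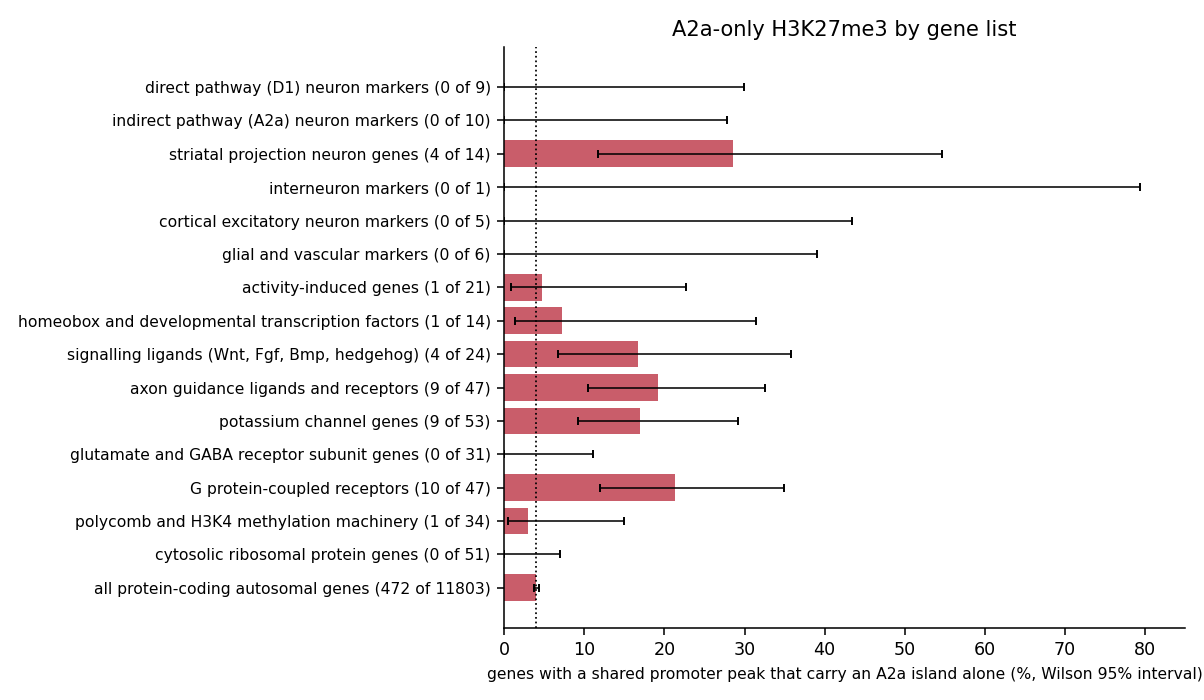
Percent of genes with a shared promoter H3K4me3 peak that carried an A2a H3K27me3 island alone (horizontal), by gene list, with the counts beside each name. Bars have Wilson 95% intervals and the dotted line is the 4.0% of all protein-coding autosomal genes; receptors, axon guidance, potassium channels and striatal projection neuron genes lie between 17.0 and 28.6%.

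The receptor members were G protein-coupled receptors for serotonin (*Htr1b*, *Htr1f*), noradrenaline (*Adra1a*), histamine (*Hrh1*), cannabinoids (*Cnr1*), opioids (*Oprk1*) and peptides (*Sstr2*, *Sstr4*, *Npy5r*, *Ntsr2*). *Htr1b*, the serotonin 1B receptor, had an H3K4me3 percentile of 65.2 in A2a and 73.5 in D1, under an A2a island of 4.4 kb with 80.5 reads per kb, and the nearest D1 island was 491 kb from the peak. *Sstr2*, a somatostatin receptor, had percentiles of 59.1 and 71.4 under an island of 7.8 kb that covered the whole peak. *Sstr4* had 41.3 and 49.5, under an island of 19.8 kb with 126 reads per kb, and a D1 island lay 8.24 kb from the peak. These 3 receptors ranked higher in D1, as did *Htr1f* (54.2 and 58.2).

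*Cnr1*, the cannabinoid receptor of striatal axon terminals, had 2 peaks in the set under 1 island of 5.6 kb and 69.8 reads per kb. The broader peak, of 3455 bp, ranked at 52.3 in A2a and 51.5 in D1. *Oprk1*, the receptor for dynorphin, had percentiles of 62.0 and 61.6, and its island of 1.8 kb covered 48.7% of the peak. The study reported the reverse for this gene, linking its expression in A2a MSNs to a loss of H3K27me3 there. The reason for the difference was not tested. *Oprk1* stayed under 7 of the 10 alternative rules tried. It left the set when 50% of the peak had to be covered, with islands of at least 2000 bp, and with the A2a list cut to the D1 covered length. *Adra1a* had 58.4 and 48.2 under an island of 7.2 kb. At *Hrh1* and *Ntsr2* a D1 island lay 0.38 kb and 0.90 kb away, and these 2 left the set when D1 islands within 5 kb were not allowed. *Htr1b*, *Htr1f*, *Adra1a*, *Cnr1*, *Sstr2* and *Sstr4* stayed under each of the 10 alternative rules tried, as did 168 of the 852 peaks. The other 37 receptor genes with a shared promoter peak included 20 with islands of both cell types, *Htr2a* and *Oxtr* among them, 3 with a D1 island alone and 14 with none.

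**Figure D5:**
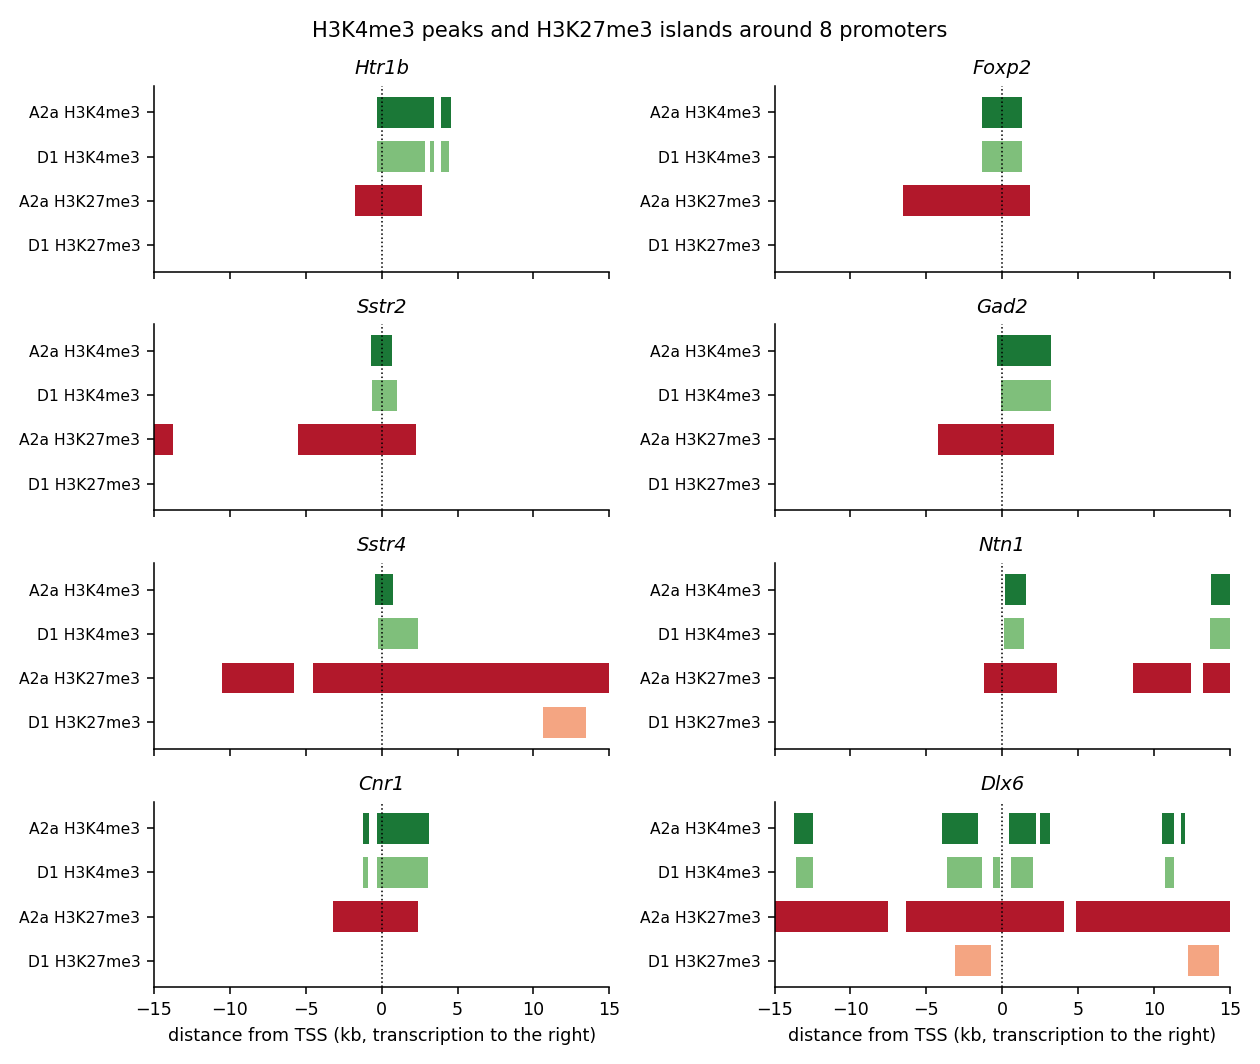
H3K4me3 peaks (green) and H3K27me3 islands (red) of A2a and D1 within 15 kb of the TSS (horizontal, kb, dotted line at 0, transcription to the right) of 8 genes of the set. The A2a island crosses the TSS at all 8, D1 has none within the window at *Htr1b*, *Sstr2*, *Cnr1*, *Foxp2*, *Gad2* and *Ntn1*, and D1 islands are seen beside the peak at *Sstr4* and *Dlx6*, where the D1 island meets a second peak upstream of the TSS.

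The striatal projection neuron genes in the set were *Foxp2*, a transcription factor of MSNs, *Gad2*, which makes GABA, *Gnal*, the G protein subunit that couples striatal receptors to adenylyl cyclase, and *Rasd2*, the small GTPase Rhes. *Foxp2* had percentiles of 60.2 in A2a and 51.5 in D1, and an A2a island of 8.4 kb with 98.0 reads per kb over the whole peak. *Gad2* had 63.6 and 68.4, under an island of 7.6 kb with 60.8 reads per kb that covered a peak of 3517 bp. Both had no D1 island within 57 kb and stayed under each of the 10 alternative rules. *Gnal* and *Rasd2* had islands of 2.2 kb and 1.0 kb, and both left the set when the A2a list was cut to the D1 covered length. None of the 14 genes of this list with a shared promoter peak carried islands of both cell types.

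Axon guidance members were ligands (*Ntn1*, *Slit1*, *Sema5b*, *Efna5*) and receptors (*Robo2*, *Plxna1*, *Epha6*, *Epha7*, *Epha8*). *Ntn1*, which encodes netrin-1, had percentiles of 45.7 and 37.2 in A2a and D1 under an island of 4.8 kb, and no D1 island was closer to the peak than 793 kb. *Robo2*, a receptor for Slit ligands, ranked at 85.4 in A2a and 61.0 in D1, with a D1 island no closer than 728 kb. *Efna5*, an ephrin ligand gene, had 75.01 and 51.8. *Epha7* stood at 79.6 and 82.8, but the A2a island covered 15.2% of its peak, and at *Epha8* 2.11%. Of these 9 genes, *Ntn1*, *Sema5b* and *Slit1* stayed in the set with the shortened A2a list. Islands of both cell types were found at 15 other genes of the list, *Slit2* and *Unc5d* among them.

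Potassium channel members included *Kcnn1* (calcium-activated), *Kcnh3* and *Kcnh7* (voltage-gated), *Kcng3* and *Kcns1* (modifying subunits), *Kcnj12* (inward rectifier), *Kcnt2* (sodium-activated) and *Kcnmb4* (accessory subunit of the BK channel). *Kcnn1* had the largest difference in favour of D1 of any promoter in the set, at 60.5 in A2a and 91.2 in D1, with an A2a island of 3.0 kb and 81.3 reads per kb. *Kcns1* stood at the other end of the list, at 36.7 and 9.57. *Kcnj12* had 76.5 and 76.7 under an island of 12.2 kb that covered 30.6% of the peak. *Kcnj12* stayed with the shortened A2a list, and *Kcnn1* did not.

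Among the ligands of development, *Bmp2* had percentiles of 55.4 and 56.5 under a 12 kb island, with a D1 island 2.86 kb away, and *Bmp6* had 80.6 and 60.1. *Fgf18* had 50.9 and 34.3. *Fgf14*, which belongs to the group of intracellular fibroblast growth factors and is not secreted, had 72.0 and 71.5, and no D1 island within 1472 kb. *Dlx6*, a homeobox gene of GABAergic neurons, lay under a 10.4 kb A2a island with a D1 island 1.21 kb from the peak. That D1 island met another H3K4me3 peak in the *Dlx6* promoter window, which therefore carried islands of both cell types. *Nr4a3*, an activity-induced nuclear receptor, had percentiles of 64.2 and 51.4 under an island of 5.4 kb that covered 41.3% of the peak. Another shared peak in its promoter window met no island. *Nr4a3* stayed with the shortened A2a list and with no D1 island within 5 kb, but not under all 10 alternative rules. The study described this gene as depleted of H3K27me3 and without broad domains of it in both cell types. The reason for the difference was not tested. *Cbx2*, a subunit of polycomb repressive complex 1, was in the set through an island that covered 4.54% of its peak, with a D1 island 0.12 kb from the peak, and was the only 1 of 34 genes of the polycomb and H3K4 methylation machinery list.

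The islands with the most reads at promoters of the set were those at *Glt28d2*, whose peak is shared with *Gm37240* (4579 reads, 36.4 kb), *Capn5* (4419 reads, 43.6 kb), *Fam126a* (2698 reads), *Gch1* (2670 reads), *Sstr4* (2486 reads), *Ptprz1* (2081 reads), *Asic4* (1991 reads), *Cbln1* (1968 reads) and *Nrg3* (1888 reads). *Gch1* encodes GTP cyclohydrolase 1, which starts the synthesis of the cofactor for dopamine and serotonin production. It ranked at 60.2 in A2a and 40.7 in D1, under an island of 29.6 kb. *Cbln1*, a synaptic organizer, had an island of 19.4 kb and a D1 island 0.16 kb from the peak, and at *Capn5*, a calpain protease gene, the D1 island was 0.28 kb from the peak. *Nrg3*, a neuregulin that binds ErbB4, ranked at 54.7 and 68.1 under 19 kb, and *Asic4*, of the acid-sensing ion channel family, at 39.5 and 50.7 under 21.2 kb. *Nrg3*, *Asic4*, *Gch1*, *Ptprz1* and the shared *Glt28d2* peak stayed under each of the 10 alternative rules.

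Among the promoters of the set, the strongest H3K4me3 peaks were at *Deptor* (−log10 q 289 in A2a), *Dclk1* (282), *Lin7a* (272), *Dcbld2* (266) and *Epb41l3* (248), followed by *Ttc30b*, *Asb1*, *Frmd4b*, *Lamb1* and *Tmem229a* (all 233 to 245). At *Deptor*, an inhibitor of mTOR, the island met 1.78% of the peak and did not reach the TSS. Islands covered 14.3% of the peak at *Ttc30b*, 17.4% at *Epb41l3* and 24.1% at *Dcbld2*. *Dclk1*, a doublecortin-like kinase gene, *Lin7a* and *Tmem229a* were covered over 99.6% or more of the peak, by islands of 2.8 to 3.4 kb with 60.7 to 62.9 reads per kb. *Lamb1*, a laminin gene, ranked at 97.6 in A2a and 75.02 in D1, and *Lin7a* stood at 99.1 and 98.2.

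The largest differences in favour of D1 after *Kcnn1* were at the peak shared by *Dtl* and *Ints7* (27.2 points), at *Cntnap3* (19.5) and at *Ror1* (19.2). At *Dtl* and *Ints7* the island was 1.6 kb long and covered 26.97% of the peak. *Ror1*, a receptor of the Wnt5a pathway, was covered whole by an island of 7.2 kb. The largest in favour of A2a, given as D1 minus A2a, were at *Btn1a1* (−36.8), *Btn2a2* (−35.7), *Tekt1* (−33.4), *S100a16* (−31.8) and *Dennd2c* (−29.9). *Btn2a2* and *Tekt1* left the set when a −log10 q of at least 5 was required in both lists. Their differences thus rest on a peak near the calling threshold. *Btn1a1* and *Btn2a2* are butyrophilin genes on chromosome 13, with separate islands of 2.4 and 2.6 kb.

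The genes of the set farthest from a D1 island were *Gm3164* (3333 kb), *Fgf14* (1472 kb), *Gm3411* (1461 kb), *Vwa5a* (1282 kb) and *AW551984* (1249 kb). They were followed by *Ntn1*, *Robo2*, *Samd5*, *A330070K13Rik* and *Tpm1*, at 650 to 793 kb. *Gm3164* and *Gm3411* are predicted genes on chromosome 14 that have similar copies nearby. How the filter on mapping quality acted on reads there was not tested, so their values are uncertain. *Samd5* had percentiles of 77.4 and 78.9 under an island of 6.8 kb, and *Tpm1*, a tropomyosin gene, had 71.5 and 67.0 under 1.6 kb.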

How the data were processed

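H3K4me3 and H3K27me3 CnR libraries came from INTACT-purified A2a and D1 striatal nuclei. Reads were aligned by the authors to mm10 (bowtie2 2.1.0), filtered to a mapping quality of 20 or more, stripped of duplicates and limited to inserts of 150 to 500 bp. For H3K4me3 the authors ran MACS2 with a q-value limit of 0.01, taken here to be on both replicates together. They deposited for each peak its fold enrichment, a ratio to local background, and its −log10 q-value. For H3K27me3 the authors ran SICER (200 bp windows, 600 bp gaps, false discovery rate 0.01) against a control not given in the sources used here, and deposited the raw read count of each island. Library totals are not part of the lists, so depth is unknown.

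Classes were built by overlap in Python (version 3.11.15; pandas 2.3.3, numpy 2.4.6, scipy 1.17.1, pysam 0.24.0, matplotlib 3.10.9), with the percentile of a peak or island taken in its own list. If a peak had several D1 partners, the one with the highest −log10 q was used. Genes came from GENCODE vM21. Shares have Wilson intervals and medians binomial order-statistic intervals at the 95% level, for counting error only. The share allowed by a count of 0 is instead 3 divided by the number of genes. It differs from the Wilson limits drawn for the gene lists, with 33.3% beside 29.9% for 0 of 9 and 5.88% beside 7.00% for 0 of 51. The classification was tested on simulated regions. Of 520 genes in 15 lists, 10 were not found among autosomal protein-coding genes.

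The members, gene lists and rules were chosen with earlier results of these data known. Named genes were promoter members by rule: the 10 with the most island reads, the 10 with the highest −log10 q, the 10 farthest from a D1 island, the 5 largest and 5 smallest rank differences, and members of the lists or named by the study. *Slc39a8*, *Ckap4*, *Aatf*, *Mcidas* and *Asap3* are named as border peaks. *Drd1*, *Pdyn*, *Tac1*, *Adora2a*, *Drd2*, *Gpr6*, *Ptprm*, *Oprd1*, *Penk*, *Htr2a*, *Oxtr*, *Slit2* and *Unc5d* are examples from lists.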

Additional observations from a re-analysis of the deposited data

How the results depend on the processing

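No paired analysis was possible because the lists hold no values per replicate, and for the same reason no replicate could be left out. The 9 results were recomputed under 16 settings, 96 values in all, of which 73 stayed within the 95% interval of the reported value (for counts, within 1.5 times) and 23 moved. None changed sign. Shortening the A2a list to the D1 covered length moved most: the set held 358 peaks (1.99% of shared peaks), the mirror set 303, the median H3K4me3 difference was −6.51, the density 68.5 reads per kb and the share with a D1 island within 10 kb 54.5%. With equal numbers of islands the set was 3.89% of shared peaks, and 43.1% had a D1 island within 10 kb. Requiring 50% of the peak to be covered gave 66.0 reads per kb and 47.3% within 10 kb. This rule held for D1 islands too, so it let in peaks that met a D1 island over a smaller part. Of its 812 peaks, 695 were in the main set, and the others raised the share within 10 kb by construction. With the A2a summit in the island, the set was 4.02% of shared peaks, 50.6% of it at promoters, with an A2a percentile of 45.5 and a CpG ratio of 0.574. With no D1 island within 5 kb, it was 3.40% of shared peaks, with 63.6 reads per kb, 15.4% within 10 kb (by construction) and 65 mirror peaks. Merging islands within 5 kb gave 58.6 reads per kb, counting any transcript start 65.4% at promoters, ranking by fold a difference of −6.50, ranking among shared peaks alone −1.80, and 300 bp at the summit a CpG ratio of 0.625. The direction of some other changes was also set by the rules. A shortened A2a list can only shrink the set and enlarge the mirror, and counting any transcript start can only raise the share at promoters. Merged islands include the bases of the gaps but no reads from them. Apart from these effects of construction, the cause was not tested. Unknown depth limits every statement that an island is absent, since a D1 island below the caller's threshold cannot be told from no H3K27me3.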

Other observations

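The mirror set of 115 shared D1 peaks with a D1 island and no A2a island met a protein-coding 5′ end at 48 peaks. *Adora2a*, the adenosine receptor that marks indirect pathway neurons, had a D1 island of 45.0 kb with 92.3 reads per kb, and its H3K4me3 percentile was 53.4 in D1 and 90.6 in A2a. *Ptprm*, a receptor tyrosine phosphatase gene, had percentiles of 56.7 and 89.9 and *Oprd1*, the delta opioid receptor gene, 41.5 and 71.4, in the same order. *Drd2* had 41.0 and 53.0 under a 7.8 kb D1 island, and its promoter window also held an A2a island that the peak did not meet. These 4 genes, all of the indirect pathway list but named here after their values were seen, ranked lower in the cell type that carried the island. *Gpr6* of the same list, at 45.4 in D1 and 55.6 in A2a, did so too. Other mirror promoters, also named after their values were seen, went the other way, such as *Car2* (88.3 in D1 and 67.4 in A2a) and *Insm1* (81.3 and 73.4). Of the 117 A2a peaks with a D1 island alone, 25 (21.4%) ranked higher in D1, against 28.7% of all shared peaks. The direction, a lower D1 rank, was thus common among shared peaks and not particular to these 4 genes. The size was not common to all 4. D1 minus A2a was −37.2 at *Adora2a*, −33.2 at *Ptprm*, −29.8 at *Oprd1* and −12.0 at *Drd2*. Over all shared peaks, taken from the A2a peaks, the 10th percentile of the difference was −17.9. In the A2a set, a lower rank in the cell type with the island would be a higher D1 rank. It was seen at 152 of 852 peaks, at 260 when ranked by fold enrichment and at 354 when ranked among shared peaks alone. The median difference, D1 minus A2a, was −10.4 in the mirror set and −7.97 in the A2a set, beside −5.68 for all shared peaks. The mirror value was not computed alike, since each D1 peak was set against its A2a partner with the highest −log10 q. Taken from the A2a peaks, the 117 with a D1 island alone had a median of −9.73. Ranked by fold enrichment the order was reversed, at −2.35 for these 117 and −6.50 for the A2a set, beside −1.37 for all shared peaks.

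Peaks of the set under islands with more reads were closer to D1 islands. For A2a islands up to the 25th percentile by reads the median distance was 34.4 kb, and above the 75th it was 4.79 kb. In the upper range, 52.5% of the 276 peaks had an A2a island that overlapped a D1 island away from the peak. Median island lengths were 2.0 and 8.1 kb and densities 65.5 and 70.4 reads per kb, so more reads went mainly with greater length. The part of island length in the distances was not tested. The median H3K4me3 difference was −9.40 and −6.89 in these ranges, and the CpG ratio 0.604 and 0.609.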
